A study of Rattus norvegicus with 12 samples.

Results

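A pair of dense groups of m6A peaks on the minus strand of chromosome 3 is described here, named after the giant muscle genes Neb and Ttn that are the candidates for them. The groups were chosen by position and strand in the authors' list of peaks that differed between injured and control sciatic nerve. The Neb group holds the 78 peaks from 42778861 to 42953918 and the Ttn group the 56 peaks from 70247337 to 70402652 (rn5), together 134 of the 4014 peaks of the list. The list names no gene, so that the gene of each group was inferred, and its position, peak lengths and gaps were examined for that purpose. Because the groups were picked for being dense, their number of peaks and their density are descriptions and were not tested.

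MeRIP-seq pulls down RNA fragments with an antibody to N6-methyladenosine (m6A), a methyl mark on adenosines inside mRNA, and sequences them (IP) beside the fragments before the pull-down (input). The sciatic nerve came from female Wistar rats 4 weeks old and of 100 to 120 g. The control group was uninjured and the SNI group was sampled 7 days after sciatic nerve injury, about 1 cm of nerve around the centre of the injury. Each group had 3 replicates, and each replicate gave an IP and an input library, 12 libraries in all. The deposited list is 1 comparison of SNI with control over all replicates. It gives a position, a strand and a score for each peak, the score being the authors' −log10 p-value, but no value per library, no fold change and no direction. Whether the m6A signal of a peak was higher or lower after SNI is therefore not known here. A supplement of the study gives gene names and directions, but was held only in part, with 0 entries in either window, and was used only for its stated format and to place the anchor genes. The depth behind a peak is unknown.

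Nebulin, the product of Neb, lies along the thin filament of skeletal muscle. It is built almost wholly of short actin-binding repeats, each encoded by about 35 codons, which over most of the protein are arranged in super-repeats of 7. Titin, the product of Ttn, spans from the edge to the middle of the sarcomere, the contractile unit of muscle, and acts as its spring. It is a chain of immunoglobulin-like and fibronectin-like domains, with short PEVK segments in the elastic part. Both are genes of striated muscle, not of nerve. The list holds no expression levels, so the muscle RNA in the nerve samples was not measured here. In bulk tissue, fewer cells of a type and less RNA per cell cannot be told apart.

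The lengths of the Neb peaks fell on a few values. A length of 105 bases was found for 19 peaks, 108 bases for 18 and 312 bases for 15. A further 6 peaks were 204 bases long, 5 were 111, 4 were 114, 3 were 198 and 2 were 207. In codons these are 35, 36, 104, 68, 37, 38, 66 and 69, so that the 2 most frequent lengths correspond to 1 nebulin repeat each. In all, 48 peaks had from 99 to 117 bases, 12 had from 198 to 207 and 15 had 312, and the other 3 had 36, 66 and 165. Lengths of 105 or 108 bases were found for 37 of 78 Neb peaks (47.4%). In the rest of the list 92 of 3880 peaks (2.37%) had them. Of the 20 peaks of 312 bases in the whole list, 15 (75%) were in the Neb group. These lengths were picked as the most frequent of the Neb group, so that part of both contrasts is built in.

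**Figure D1:**
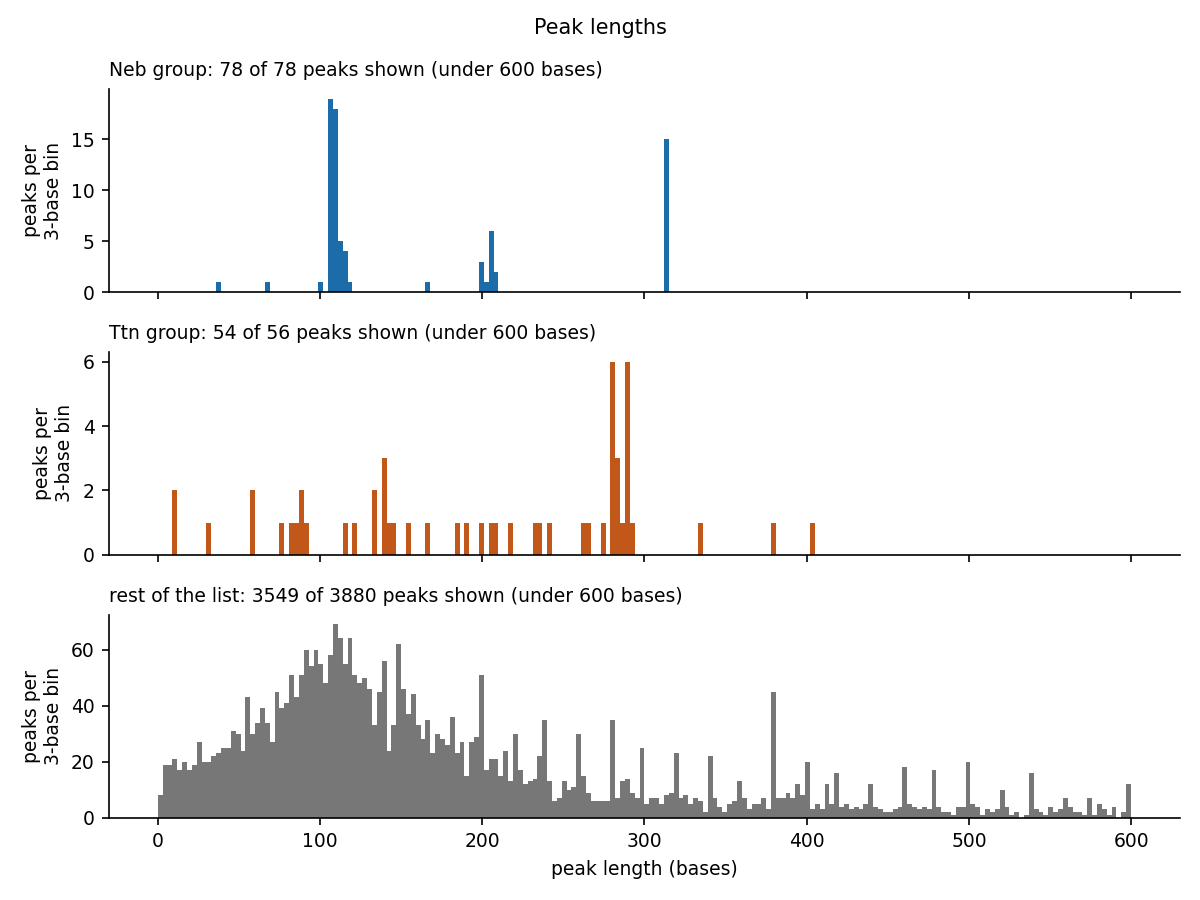
Number of peaks per 3-base bin of peak length (bases) in the Neb group, the Ttn group and the rest of the list, for lengths under 600 bases. The Neb peaks stand at 105 to 117, 198 to 207 and 312 bases and the Ttn peaks are most frequent at 279 to 288, while the rest of the list is spread broadly, with narrow spikes such as that at 379 bases, where all 42 peaks have both ends on the 20-base grid.

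Every one of the 78 Neb peaks had a length that is a multiple of 3, against 1484 of 3880 (38.2%) in the rest of the list. Exons that keep the reading frame have such lengths, and the repeat exons of nebulin are known for it. Peak ends were looked at too. In the list many starts lie 1 base past a multiple of 20 and many ends lie at a multiple of 20. The sources used here give no window step, and this 20-base grid was inferred from the coordinates. Both ends were off the grid in 69 of 78 Neb peaks (88.5%, exact 95% Clopper-Pearson interval 79.2% to 94.6%). In the Ttn group this was so for 35 of 56 (62.5%, 48.5% to 75.1%) and in the rest of the list for 1967 of 3880 (50.7%, 49.1% to 52.3%). These intervals cover counting error over peaks only, since neighbouring peaks are not replicates.

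Among peaks with both ends off the grid, the share with a length that is a multiple of 3 separated the groups from the rest of the list. It was 69 of 69 in the Neb group (100%, 94.8% to 100%), 29 of 35 in the Ttn group (82.9%, 66.4% to 93.4%) and 840 of 1967 in the rest (42.7%, 40.5% to 44.9%). The intervals of both groups lay above that of the rest, and the Neb interval began above the upper bound of the Ttn interval. Here too the intervals cover counting error over peaks only. Lengths were taken as end minus start, because the study's supplement describes its peak positions as BED format, in which starts count from 0. The in-frame shares rest on this reading: with 1 base added, 0 of the 78 Neb peaks would be a multiple of 3. Peaks with both ends on the grid have starts 1 past a multiple of 20, as starts counted from 1 would, so that the convention may not be the same for all ends. Coordinates are printed as the list gives them.

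**Figure D2:**
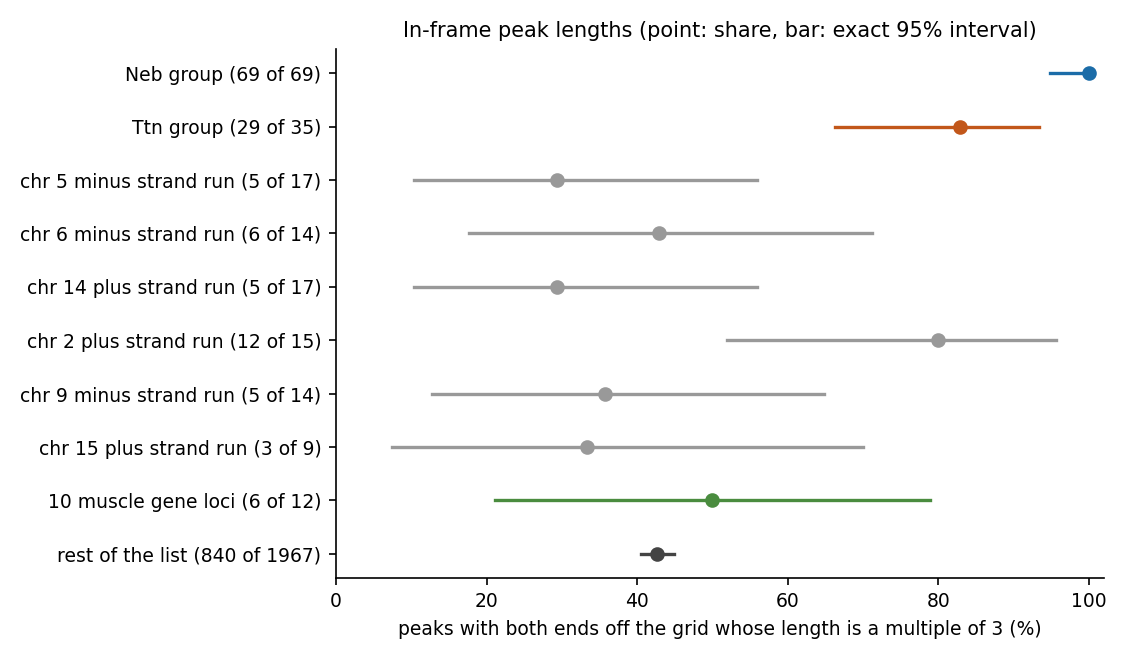
Share (%) of peaks with both ends off the 20-base grid whose length is a multiple of 3, with exact 95% intervals (bars), for the Neb and Ttn groups, the 6 next largest runs of peaks, the loci of 10 other muscle genes and the rest of the list. The Neb group is at 100% and the Ttn group at 82.9%, and the rest of the list is at 42.7%. The run on chromosome 2 is at 80%.

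A high share of in-frame lengths was not particular to these groups. Peaks of the same strand less than 20 kb apart were joined into runs, which gave 2258 runs, 1575 of them a single peak. The Neb and Ttn groups were the largest runs and had no gap as wide as that within them. The next largest had 29 peaks (chromosome 5, minus strand), 22 (chromosome 6, minus), 21 (chromosome 14, plus) and 20 (chromosome 2, plus, from 258919757 to 258958080). The chromosome 2 run had 12 of 15 off-grid peaks of in-frame length (80%, 51.9% to 95.7%), close to the Ttn group, whereas those on chromosomes 5, 6 and 14 had 5 of 17, 6 of 14 and 5 of 17. Per 10 kb, the Neb group had 4.46 peaks and the Ttn group 3.61, and the chromosome 6 and chromosome 2 runs had 4.5 and 5.22.

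The order of the Neb lengths was not even along the transcript. Since the group is on the minus strand, the 5′ end of the transcript is at the highest coordinate. The first 17 peaks, over 41.1 kb, had a median length of 108 bases and none of 312. The next 39 peaks, over 89.6 kb, ran from the first to the last peak of 312 bases, and all 8 peaks of 204 or 207 bases were among them. The last 22 peaks, over 41.7 kb, again had a median of 108 bases, with 9 of 105 and 7 of 111 or 114. Counting all lengths from 198 to 207 bases, 8 were in the middle stretch and 2 on each side of it. Lengths near a single repeat were found in all 3 stretches, while those of 312 bases mark out the middle by the way it was defined.

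The peak just 5′ of a 312-base peak had 108 bases in 10 of 15 cases. The peak just 3′ of it had 204 or 207 bases in 8 of 15. For the outermost 312-base peaks, the outer neighbour lies just outside the middle stretch. From a 312-base peak to the next it was 2 peaks on in 7 cases, 3 in 4 cases and 4 in 3 cases. The full order of 105, 108, 312 and then 207 or 204 bases was found in 2 places. The peaks from 42905787 to 42909669 added up to 732 bases (244 codons), and those from 42843082 to 42847809 to 729 bases (243 codons). Rounded to whole multiples of 105 bases, any such 4-peak order comes to 7 repeat units, the number in a nebulin super-repeat. That sum was fixed by the lengths searched for and is no separate evidence. Where a length is missing from the order, the list cannot tell an exon that did not pass the authors' thresholds from one that the gene lacks.

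**Figure D3:**
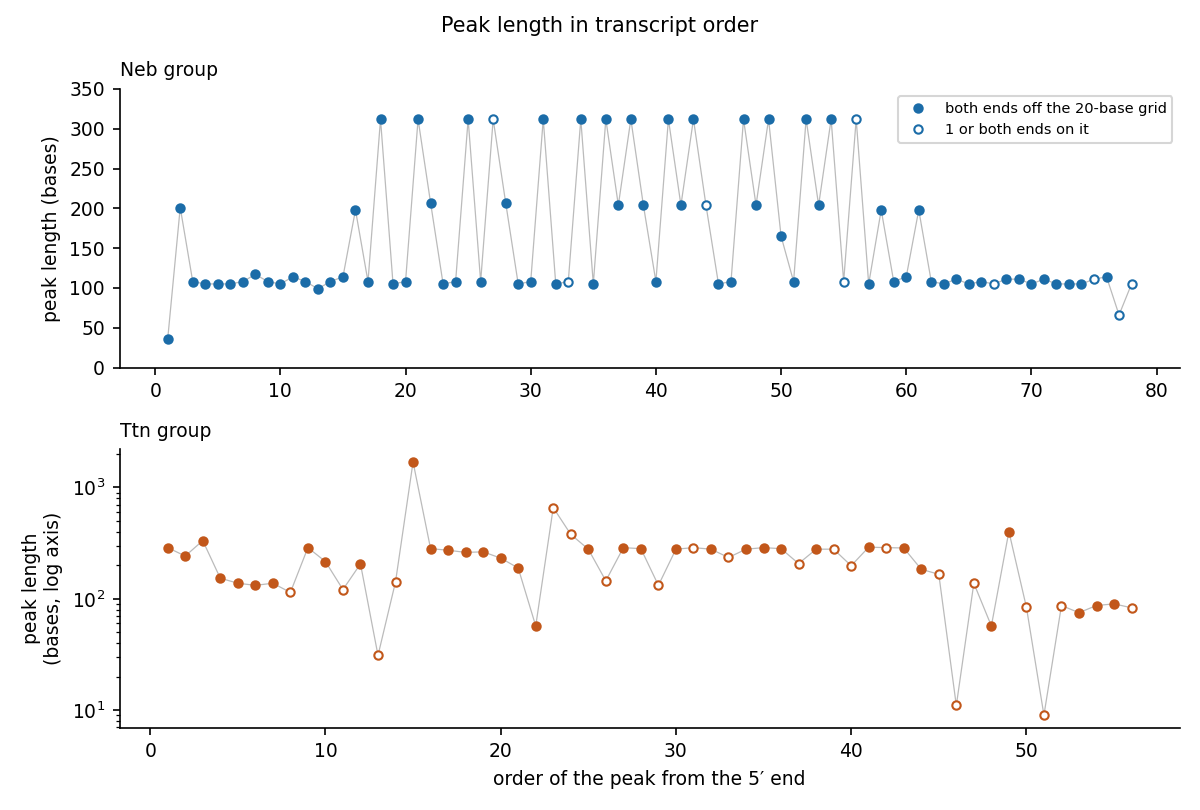
Peak length (bases) of each peak in order from the 5′ end, for the Neb group (linear axis, peaks 1 to 78) and the Ttn group (log axis, peaks 1 to 56). Filled points have both ends off the 20-base grid and open points have 1 or both ends on it. In the Neb group the 15 peaks of 312 bases lie between peaks 18 and 56, and on either side most lengths are near 105, with 2 peaks of 198 to 201 bases on each side. In the Ttn group most lengths between peaks 25 and 43 are 279 to 291 bases.

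The Ttn group was more mixed. Lengths ran from 9 to 1694 bases, with a median of 224 (quartiles 132 and 282), against 36 to 312 bases and a median of 108 (quartiles 105 and 204) in the Neb group and a median of 152 (95 and 294) in the rest. The most frequent lengths were 279 and 288 bases with 6 peaks each, then 282 and 138 with 3 each. The 3 longer lengths are 93, 96 and 94 codons, about the size of an immunoglobulin-like or fibronectin-like domain. From 261 to 291 bases there were 20 peaks (35.7%), against 118 (3.04%) in the rest of the list. This range was set after the lengths were seen. Of these 20, 17 had both ends off the grid and 16 of the 17 had an in-frame length, whereas 1 of the 6 peaks of 279 bases had both ends on the grid, where 279 is also a length that such ends give.

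The Ttn peaks fell into 2 large stretches and 6 scattered peaks. The 5′ stretch, from 70351721 to 70402652, had 24 peaks over 50.9 kb. It opened with a 288-base peak and held 4 shorter ones in succession of 153, 138, 132 and 138 bases, and also the longest peak of the group, of 1694 bases (70376600 to 70378294, score 5.89), and the next longest, of 659 bases (70352361 to 70353020, score 7.18). The second stretch, from 70289756 to 70333412, had 26 peaks over 43.7 kb, with a median length of 279 bases, and 14 of the 20 domain-sized peaks were in it, besides a 402-base peak (70295114 to 70295516, score 6.12) that was the third longest of the group. An empty stretch of 18.3 kb, the widest of the group, lay between them.

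After the second stretch the Ttn peaks became short and far apart. A 9-base peak and an 87-base peak followed after 10.7 kb and 14.9 kb, and after another 13.8 kb came 4 peaks of 75, 87, 90 and 83 bases within 3 kb (70247337 to 70250293). These last lengths are between 25 and 30 codons, in the range known for exons of the PEVK segments, but there were only 6 peaks of this size in the group, and lengths from 75 to 90 bases made up 254 (6.55%) of the rest of the list. Their scores were 7.42, 7.92, 6.16 and 7.04 from 5′ to 3′. No further peak of the group lay beyond them.

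The position of both groups was set beside the order of genes in RefSeq's gene table, which is on GRCr8 and not on the build of the peaks, so that only names, order and lengths of genes were used. Peaks that the study's supplement names by identical start and end fix Arhgap15 at 33928028 to 33928090 and Serping1 at 78691015 to 78691120 on chromosome 3 of rn5, and both groups lie between them. In GRCr8, Neb and Ttn are among the 199 protein-coding genes between Arhgap15 and Serping1, in that order, with 22 genes between Arhgap15 and Neb and 139 between Neb and Ttn. Neb stands between Rif1 and Arl5a, and Ttn between Plekha3 and Ccdc141. The Neb group spanned 175 kb, or 88.4% of the length of Neb in GRCr8 (198 kb), and the Ttn group 155 kb, or 57.0% of that of Ttn (272 kb). Neither group was longer than its candidate gene. Span alone did not single out a gene, since 26 of the 199 genes are at least as long as the Neb group and 34 as the Ttn group.

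The peaks just outside the windows differed between the groups. For Neb, the nearest peak on the 5′ side was 103 kb away (43056681 to 43057080, minus strand, 399 bases, score 9.10) and the nearest on the 3′ side 1016 kb away. The outermost Neb peaks were of 36 bases (42953882 to 42953918, score 7.03) and 105 bases (42778861 to 42778966, score 7.19). For Ttn, 2 more minus-strand peaks lay 106 and 105 kb beyond the 3′ end of the group, from 70141630 to 70141760 (130 bases, score 7.07) and from 70141941 to 70142200 (259 bases, score 6.41). Their 3′ edges lay 261 kb from the 5′-most end of the group, which is less than the GRCr8 length of Ttn. The window may therefore not hold all Ttn peaks of the list. The outermost Ttn peaks had 288 bases and a score of 7 at the 5′ end, and 83 bases and a score of 7.04 at the 3′ end. No plus-strand peak lay in either window (0 and 0).

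Gaps between neighbouring peaks were measured, and no intron lengths were at hand to set them against. A gap may also hold exons without a listed peak. In the Neb group the median gap was 1564 bases (quartiles 920 and 2480, 77 gaps), the shortest 341 and the longest 10372 bases. In the Ttn group the median was 1197 bases (quartiles 646 and 2385, 55 gaps), the shortest 61 and the longest 18309 bases. Gaps of 5 kb or more numbered 5 in the Neb group and 8 in the Ttn group. The longest of Neb, from 42850999 to 42861371, parted the group into 42 peaks on the 5′ side and 36 on the 3′ side. Peaks covered 12546 bases of the Neb group (7.17% of its span, 4182 codons) and 13189 bases of the Ttn group (8.49%).

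**Figure D4:**
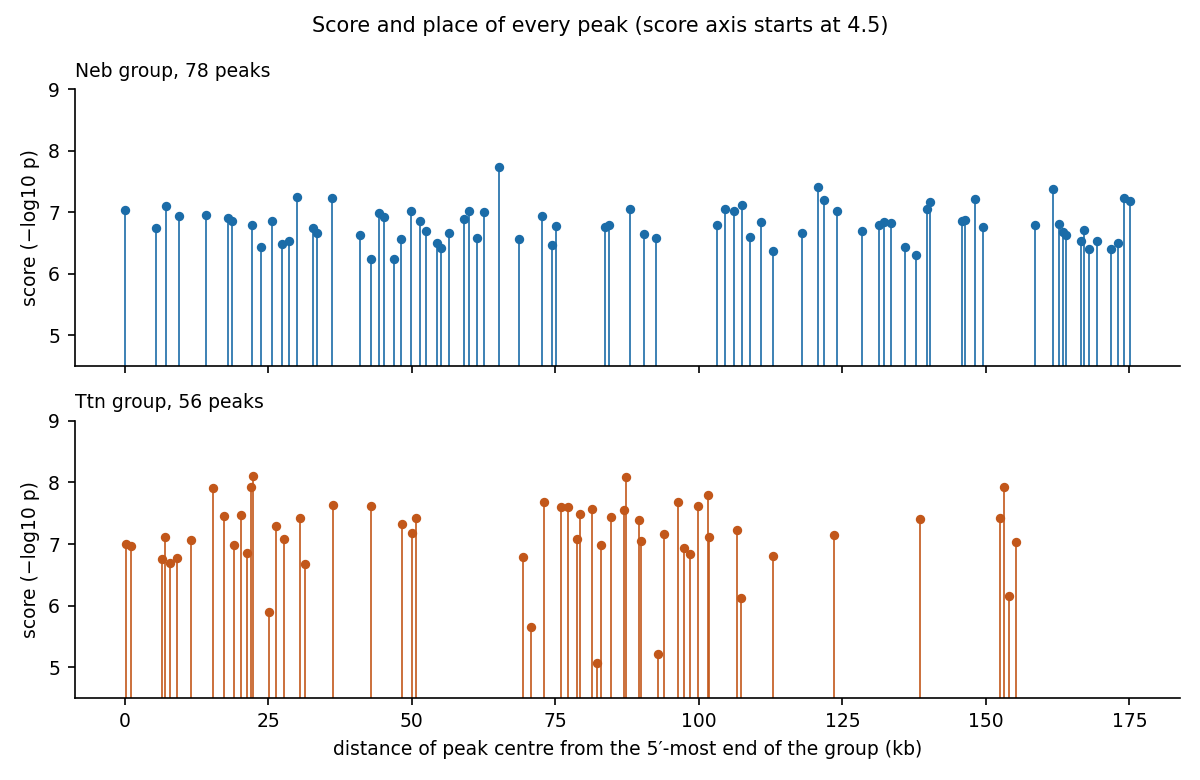
Score (−log10 p) of each peak against the distance (kb) of its centre from the 5′-most end of the group, for the 78 Neb and 56 Ttn peaks; the score axis starts at 4.5. Neb peaks lie along the whole span with scores from 6.23 to 7.73, and Ttn peaks lie mostly within 2 stretches, with 4 scores below 6.

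The Neb scores lay in a narrow band. They ran from 6.23 to 7.73, with a median of 6.79 (quartiles 6.59 and 7.01) and an SD over the 78 peaks of 0.29. Ttn scores were wider apart, between 5.07 and 8.10, around a median of 7.17 (6.92 and 7.55) and an SD of 0.63. In the rest of the list the range was 5 to 13.6, with a median of 7.5 (6.54 and 9) and an SD of 1.88. The next 4 runs of many peaks had SDs of 1.55, 1.92, 1.26 and 2.03, in the order of their size. The 20 peaks at the loci of other muscle genes, described last, had an SD of 0.51, between those of the Neb and the Ttn group. The order-statistic 95% interval of the median was 6.69 to 6.85 for Neb, 7.04 to 7.42 for Ttn and 7.44 to 7.56 for the rest. The Neb interval lay below those of Ttn and the rest. The Ttn interval overlapped that of the other 156 peaks on the minus strand of chromosome 3 (7.36 to 7.93). These intervals cover counting error over peaks only, since peaks are not replicates, and no difference between groups was tested. By rank in the list of 4014, the Neb peaks lay between 1707 and 3263 and the Ttn peaks between 1418 and 3965. No Neb peak and 2 Ttn peaks had a score of at least 8, against 1488 peaks (38.4%) of the rest. Every row of the list is a peak that the authors called, so a share of called among tested peaks cannot be given.

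The 3 highest Neb scores belonged to peaks of a single repeat length. They were 7.73 (42888721 to 42888829, 108 bases), 7.41 (42833059 to 42833167, 108 bases) and 7.38 (42792195 to 42792300, 105 bases). The lowest, 6.23 and 6.24, belonged to the 2 most 5′ peaks of 312 bases (42910933 to 42911245 and 42906914 to 42907226). Longer Neb peaks tended to score lower: the median was 6.85 for the 48 peaks of 99 to 117 bases, 6.78 for the 12 of 198 to 207 and 6.59 for the 15 of 312. Across the 78 peaks, which share libraries and, as inferred, a gene, Spearman's rho of length and score was -0.41. It was -0.12 across the 56 Ttn peaks and 0.090 across the 3880 of the rest. Along the transcript the score was nearly level, with rho of distance from the 5′ end and score of -0.039 in the Neb group and 0.055 in the Ttn group.

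The 3 highest Ttn scores were 8.10 (70380201 to 70380343, 142 bases), 8.09 (70315201 to 70315408, 207 bases) and 7.92 (70380661 to 70380692, 31 bases). Each of these peaks had its start on the grid. The lowest were 5.07 (70320321 to 70320556, 235 bases) and 5.22 (70309722 to 70309920, 198 bases), both in the second stretch and both with 1 end on the grid. The next 2 were 5.65 and 5.89. The 20 peaks of domain size lay closer together than the whole group, from 6.67 to 7.69. Their median was 7.34, against 7.17 for the group, but none of the 3 highest scores was theirs. Medians of the 5′ and the second stretch were 7.15 and 7.20, so that the stretches differed little in score.

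**Figure D5:**
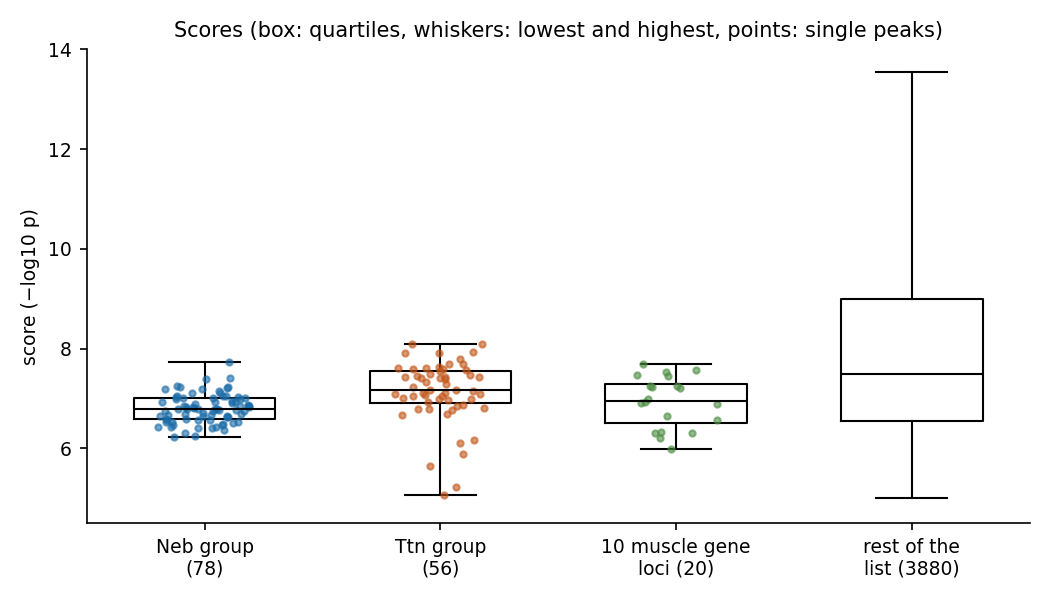
Scores (−log10 p) of the Neb group, the Ttn group, the peaks at the loci of 10 other muscle genes and the rest of the list, with boxes for quartiles, whiskers to the lowest and highest value and points for single peaks. The Neb, Ttn and muscle gene peaks have medians of 6.79, 7.17 and 6.95 and stay at or below 8.10, while the rest of the list reaches 13.6.

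Other genes of muscle contraction, calcium handling and energy supply were looked up at 10 loci that the study prints for the same build. Of the 10, 7 had peaks, 20 in all. Myh1 and Myh4, fast myosin heavy chains, had 6 each, Myh2, another fast myosin, had 3 and Atp2a1, the calcium pump of fast fibres, had 2. Mb (myoglobin), Actn3 (alpha-actinin of fast fibres) and Acta1 (skeletal actin) had 1 each, and Ckm, Sypl2 and Pgam2 had 0. The scores of these 20 peaks lay between 5.99 and 7.69, their median was 6.95, and none reached 8, as in the Neb group. Of their 12 peaks with both ends off the grid, 6 had an in-frame length (50%, 21.1% to 78.9%). This interval included the share in the rest of the list and lay wholly below that of the Neb group. It overlapped that of the Ttn group (66.4% to 93.4%). The study lists these 10 genes among its top differently expressed mRNAs, all reported as lower after SNI. They were thus selected for a change between the same groups, and are no independent evidence about muscle genes. In the study's quality control, the control RNA-seq libraries have the raw read counts of the SNI input libraries, and the reverse. The group labels conflict there, and the reported direction rests on them.

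The repeats within nebulin, and some within titin, are alike in sequence, so that reads from a repeat can match more than 1 exon. How the authors treated reads with several matches is not given in the sources used here, and the split of signal between neighbouring Neb peaks is uncertain for that reason.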

How the data were processed

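Rat sciatic nerve was sampled in 3 control and 3 SNI replicates with an m6A IP and an input library each. The submitters' processing notes name cutadapt (1.9.3), HISAT2 (2.0.4) and rn5. Per the study's methods, peaks were called with MACS and compared with diffReps. The authors deposited 1 list of differential peaks with −log10 p-values as scores, pooled over replicates, so that no depth per peak, replicate error or test over samples could be had.

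Peaks were assigned to the groups by chromosome, strand and window. Length is end minus start, and an end was on the grid at 1 (start) or 0 (end) bases past a multiple of 20. Shares have exact Clopper-Pearson intervals and medians order-statistic intervals (95%, counting error only). Correlations carry no test. Functions were tested on simulated data. The groups, lists and lookups were chosen with earlier results of these data known, length classes and stretches after the lengths were seen. Single peaks named are the 3 highest in score, the 3 longest (in the Neb group 15 tie), the outermost and those just outside the windows. The lowest scores and peaks that mark a stretch were added after their values were seen. The other muscle genes are 10 that the study lists, with rn5 loci, as lower in mRNA after SNI, a direction that rests on the conflicting labels named above. Genome and protein sequences were not analysed here. Alternatives changed the score and length minimum, merging, the grid, the length convention and the distance for runs. Scripts ran in Python 3.11.15 with pandas 2.3.3 and numpy 2.4.6, intervals came from scipy 1.17.1 and plots from matplotlib 3.10.9.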

Additional observations from a re-analysis of the deposited data

How the results depend on the processing

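Of 56 values under an alternative, 10 moved by more than the 95% interval of the value or, for counts and densities, by more than 1.5 times, or, for ranks, at all, and 46 did not. Requiring a score of at least 8 left 0 Neb and 2 Ttn peaks and raised the median length of the rest of the list to 166 bases. A length of at least 50 bases raised the latter to 167. With 1 base added to each length, the in-frame share of peaks with both ends off the grid was 0% in the Neb group, 8.57% in the Ttn group and 28.2% in the rest. With starts at a multiple of 20 also taken as on the grid, 47.8% of the rest had both ends off it. The rest of the minus strand of chromosome 3 alone had a median score of 7.62. Joining peaks less than 10 kb apart put the largest Ttn run (26 peaks) at rank 3 in place of 2, behind 2 Neb runs of 42 and 36 peaks. With no Neb peak left at a score of at least 8, no median length could be given there. No paired analysis was possible because the list has no values per library, and for the same reason no replicate was left out.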

Other observations

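Each peak of the list carries a running number, which rises with position and whose meaning is not stated. The 78 Neb peaks had numbers from 802204 to 802364, so that 48.4% of the 161 numbers in that range were in the list. The 56 Ttn peaks had numbers from 818114 to 818218 (53.3% of 105). Over the whole list, 0.288% of the 1394843 numbers between the lowest and the highest were present. In the runs of 29 and 22 peaks the shares were 29.3% and 39.3%. The longest unbroken series of numbers in the list had 25 peaks, and a series of that length lay in the Ttn group. The longest in the Neb group had 12. These shares depend on the density by which the groups were chosen, and were not tested.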
